A study of Homo sapiens with 6 samples.

Results

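The RNAs of matrix metalloproteinases (MMPs), of the urokinase and tissue plasminogen activators with their surface receptor, and of tissue inhibitors of metalloproteinases (TIMPs) were followed in DU-145-DR/tet-MUC1shRNA prostate cancer cells with and without doxycycline (DOX). The members were chosen by gene symbol: MMP1, MMP2, MMP9, MMP10, MMP14, PLAU, PLAUR, PLAT, TIMP1 and TIMP2, which are 10 of the 28008 genes of the count table. Of these, 7 passed the filter on low counts and were tested, and 4 of the 7 passed an edgeR adjusted p of 0.05, as did 26.7% of all genes tested. In DOX-positive cells MMP14 rose 1.97-fold, PLAUR rose 1.47-fold and PLAU rose 1.13-fold, while TIMP2 fell to 0.831 of its DOX-negative level. The PLAU call was lost when certain single libraries were left out. TIMP1, MMP1 and PLAT did not pass the test, and MMP2, MMP9 and MMP10 were at or near 0 in every library.

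By way of background, MMPs are zinc-dependent enzymes that cut collagens and other proteins of the extracellular matrix, and most are made as inactive proforms. MMP14 sits in the plasma membrane, where it cuts fibrillar collagen and, with TIMP2 as a bridge, activates the proform of MMP2. PLAU (urokinase) bound to its receptor PLAUR turns plasminogen into plasmin, a broad protease that can in turn activate proMMPs. TIMPs bind the active site of MMPs and block it, and TIMP1 is a poor inhibitor of MMP14 where TIMP2 is a strong one. In carcinomas this system is known for its part in invasion, and much of it is supplied by stromal cells. RNA levels do not measure enzyme activity, and DOX itself is a known inhibitor of MMP enzymes.

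Bulk RNA-Seq was performed on 6 cultures of a docetaxel-resistant (DTX-resistant) derivative of DU-145, a human prostate carcinoma line, carrying a DOX-inducible hairpin against MUC1. The question was how silencing MUC1, whose C-terminal subunit MUC1-C signals from the membrane and in the nucleus, changes expression in these cells. The DOX-negative group (3 libraries) was given DMSO vehicle, and the DOX-positive group (3 libraries) was given 500 ng/ml DOX, for a week per the methods of the study. In the labels the hairpin is named only where DOX was given, and DTX resistance only where it was not. Titles and the study treat the cells of both groups as 1 line, and so did the comparison here. A control hairpin under DOX was not analysed here, so the effects of DOX and of MUC1 silencing cannot be told apart. Effects of the hairpin on RNAs other than MUC1 cannot be told apart from these either. The line, selected with puromycin, is kept in culture without stroma, and fewer cells of a kind and less RNA per cell cannot be told apart in bulk RNA.

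Libraries held between 15092691 and 23243713 counts. The targeted gene MUC1 had 387, 484 and 396 counts without DOX and 75, 74 and 66 with DOX. It fell by 82.6%, so the labels matched the silencing in all 6 libraries. KLK3, a marker of luminal prostate cells, was at 0 in every library. The 4 epithelial markers all rose (summed level 586 to 650 CPM, counts per 1000000 counts of the scaled library, without DOX and 1077 to 1164 CPM with DOX), and their part in the results below was not tested. Markers of cells that could supply proteases stayed low. The 7 fibroblast markers summed to 4.65 to 5.56 CPM without DOX and 4.31 to 6.26 CPM with DOX, most of it COL1A1. The 5 leukocyte markers summed to at most 0.653 CPM and the 3 endothelial markers to at most 0.958 CPM in any library.

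The genes lie apart except for a run of metalloproteinase genes on chromosome 11 (all positions are of GRCh38, from the GENCODE 29 annotation). MMP14 is at chr14:22836557-22849027, PLAU at chr10:73909177-73917497, PLAUR at chr19:43646095-43670547, TIMP1 at chrX:47582313-47586789 and TIMP2 at chr17:78852977-78925387. MMP2 is at chr16:55389700-55506691 and MMP9 at chr20:46008908-46016561. MMP1 (chr11:102789920-102798160) and MMP10 (chr11:102770503-102780628) belong to the run of metalloproteinase genes between 102520508 and 102955734.

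Many genes of this system are textbook targets of the AP-1 transcription factors (FOS and JUN proteins). The promoters given by RefSeq (GRCh38.p14, 250 bases before to 50 after the start of transcription) were therefore searched for TGANTCA. This is a loose form of the AP-1 motif, with any base at N, and it reads the same on the other strand. RefSeq promoters were given for 5 members: MMP10, MMP14, PLAU (with more than 1 start), PLAUR and TIMP1. The motif was found in PLAUR (as TGAGTCA), first base 186 bases before the start, and in MMP10 (as TGAATCA), first base 67 bases before the start. It was found in neither MMP14, PLAU nor TIMP1. Of all 35116 promoter windows of this length, 7.71% hold it. The 250 bases before the start are shown for MMP14 and PLAUR, the members past the threshold with the largest rises, and for MMP10, which had no count in any library, 5′ to 3′ along the gene, with the motif in capitals.
MMP14 (chr14:22836335-22836584, plus strand): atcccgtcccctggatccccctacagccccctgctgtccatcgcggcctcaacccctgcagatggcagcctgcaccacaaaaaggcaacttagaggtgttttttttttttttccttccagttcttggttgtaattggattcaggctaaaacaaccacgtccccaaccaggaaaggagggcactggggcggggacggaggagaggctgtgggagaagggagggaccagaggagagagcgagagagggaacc
PLAUR (chr19:43670170-43670419, minus strand): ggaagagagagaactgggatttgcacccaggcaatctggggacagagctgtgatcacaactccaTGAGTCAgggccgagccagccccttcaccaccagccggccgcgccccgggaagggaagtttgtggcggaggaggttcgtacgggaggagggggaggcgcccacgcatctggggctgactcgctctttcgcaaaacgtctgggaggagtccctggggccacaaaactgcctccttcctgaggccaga
MMP10 (chr11:102780629-102780878, minus strand): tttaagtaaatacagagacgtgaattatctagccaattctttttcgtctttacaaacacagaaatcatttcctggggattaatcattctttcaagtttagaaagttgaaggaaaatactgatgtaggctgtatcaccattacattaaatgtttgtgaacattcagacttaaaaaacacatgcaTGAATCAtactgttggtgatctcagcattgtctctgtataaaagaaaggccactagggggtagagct

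PLAUR, with a match, rose, and MMP10, with a match that differs in the middle base, had no count. MMP14, whose window has no match, had the largest log2 fold change of the members. Among all genes with a promoter, the motif was present in 151 of 1433 genes called higher (10.5%), in 112 of 1490 called lower (7.52%) and in 746 of 10483 tested (7.12%). A match of letters is a description and not a site in use.

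Levels of different genes were compared per length, on the scale of TPM (reads per transcript length, scaled to a total of 1000000 per library), rescaled without 5 abundant short noncoding RNAs. PLAU stood highest, at 639 ± 16.9 TPM (SD, n = 3) without DOX and 710 ± 28.3 TPM with DOX. Both inhibitors followed: TIMP1 was at 249 ± 14.7 TPM and TIMP2 at 244 ± 3.87 TPM without DOX. These levels of TIMP1 and TIMP2 did not differ beyond their spread, with TIMP1 above in 2 of 3 libraries. With DOX, TIMP1 was at 282 ± 17.8 TPM and TIMP2 at 199 ± 12.7 TPM, and TIMP1 was above in 3 of 3 libraries. PLAUR was next, at 55.9 ± 2.44 TPM without DOX and 80.7 ± 4.86 TPM with DOX, above MMP14 at 26.9 ± 1.29 and 52.2 ± 1.43 TPM in all 6 libraries. MMP1 (1.66 ± 0.592 and 2.44 ± 0.535 TPM) and PLAT (0.831 ± 0.128 and 0.654 ± 0.123 TPM) were low, with MMP1 above PLAT in all 6 libraries. MMP9 and MMP2, at means under 0.1 TPM in both groups, could not be ordered, and MMP10 was listed at 0.

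Among the genes of plasminogen activation, the urokinase receptor and urokinase rose, and the tissue activator was scarce. PLAUR, the anchor that holds urokinase at the cell surface, had 35.7, 38.4 and 38.3 CPM without DOX and 53, 58.3 and 53.7 CPM with DOX. Every DOX-positive library was above every DOX-negative library. The log2 fold change was 0.55 (SE 0.0804, 95% interval 0.39 to 0.72, edgeR adjusted p = 2.2e-05). PLAU, urokinase itself, had 590, 602 and 601 CPM without DOX and 711, 642 and 675 CPM with DOX. The groups again did not overlap, but the lowest DOX-positive library lay close to the DOX-negative ones. Its log2 fold change was 0.18 (SE 0.0612, 95% interval 0.05 to 0.3, edgeR adjusted p = 0.0353), a rise of 13.1%.

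The PLAU call rested on single libraries and on the scaling. It was lost when replicate 1 or 3 of the DOX-negative group was left out (edgeR adjusted p = 0.126 and 0.0534) and when replicate 1 or 3 of the DOX-positive group was (0.181 and 0.0925), with the log2 fold change between 0.14 and 0.18 in these fits. It was also lost with totals in place of TMM factors (edgeR adjusted p = 0.082) and on rescaled TPM (limma adjusted p = 0.0854), and on the deposited TPM the log2 fold change was -0.22. PLAT (on chromosome 8), the tissue plasminogen activator that acts mainly in the clearance of fibrin, had only 18, 15 and 22 counts without DOX and 18, 17 and 9 with DOX. Its groups overlapped, and the log2 fold change of -0.31 (95% interval -1.1 to 0.49) did not pass the test (edgeR adjusted p = 0.604). A change of either sign within this interval could not be told from none at this depth.

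Of the metalloproteinases among the members, MMP14 was the abundant one and changed most. It had 642, 682 and 677 counts without DOX and 1638, 1264 and 1003 counts with DOX, or 35.3, 34.9 and 33.7 CPM and 71.3, 66 and 67.4 CPM after scaling for library size. The libraries of a group lay close together and the groups far apart. The log2 fold change was 0.98 (SE 0.0776, 95% interval 0.82 to 1.14, edgeR adjusted p = 4.95e-09). MMP1, the interstitial collagenase, had 1.6, 0.92 and 0.895 CPM without DOX and 1.87, 1.98 and 1.28 CPM with DOX. DOX-negative replicate 1 overlapped the DOX-positive range, and the log2 fold change of 0.61 (95% interval -0.09 to 1.32) did not pass the test (edgeR adjusted p = 0.195).

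The gelatinases and MMP10 were below the filter. MMP2, the proenzyme that MMP14 and TIMP2 activate together, had 0, 0 and 3 counts without DOX and 0, 2 and 0 with DOX. MMP9, the other gelatinase, had 0, 2 and 1 counts without DOX and 1, 0 and 1 with DOX. MMP10 (stromelysin-2) had none in any library. A count of 0 allows up to 3 counts, which is between 0.129 and 0.199 CPM in a library, so both gelatinases were at or under this limit in each library and no fold is given for them.

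The neighbours of MMP1 and MMP10 on chromosome 11 were also scarce. Over the 6 libraries together, MMP7, MMP20, MMP27 and MMP10 had 0 counts, MMP8 had 2, MMP12 had 1, MMP3 had 17, MMP13 had 99 and MMP1 had 165. All counts of MMP3 (stromelysin-1, which can activate other proMMPs) were in the DOX-positive libraries, with 8, 5 and 4 counts against 0, 0 and 0. Pooled over the group, the level of MMP3 with DOX was 5.62 times a floor of 3 counts over the DOX-negative group. The error of the 17 counts with DOX is not in this value, so it is not a lower bound. MMP3 was below the filter, and without the filter it passed (edgeR adjusted p = 0.00844). MMP13 (collagenase-3) had 15, 26 and 23 counts without DOX and 15, 10 and 10 with DOX, and its log2 fold change of -0.84 (95% interval -1.65 to -0.02) did not pass the test (edgeR adjusted p = 0.121). With counts thinned to the smallest library it passed (log2 fold change -1.36, adjusted p = 0.0316), from 1 random draw of few counts.

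Of the inhibitors among the members, TIMP2 fell and TIMP1 did not pass the test. TIMP2, the inhibitor that also tethers proMMP2 to MMP14, had 317, 317 and 323 CPM without DOX and 262, 282 and 251 CPM with DOX. The DOX-negative libraries differed little and every DOX-positive library was below them. The log2 fold change was -0.27 (SE 0.0618, 95% interval -0.4 to -0.14, edgeR adjusted p = 0.00254), a level 0.831 times that without DOX. TIMP1, a secreted inhibitor that also acts as a growth and survival factor, had 59.5, 57 and 67.2 CPM without DOX and 75.6, 69.8 and 65.3 CPM with DOX. DOX-negative replicate 3 lay above DOX-positive replicate 3, so the groups overlapped. The log2 fold change of TIMP1 was 0.20 (SE 0.0813, 95% interval 0.03 to 0.37) and did not pass the test (edgeR adjusted p = 0.0736). Without DOX-negative replicate 3 it did, at 0.27 (adjusted p = 0.0287).

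**Figure D1:**
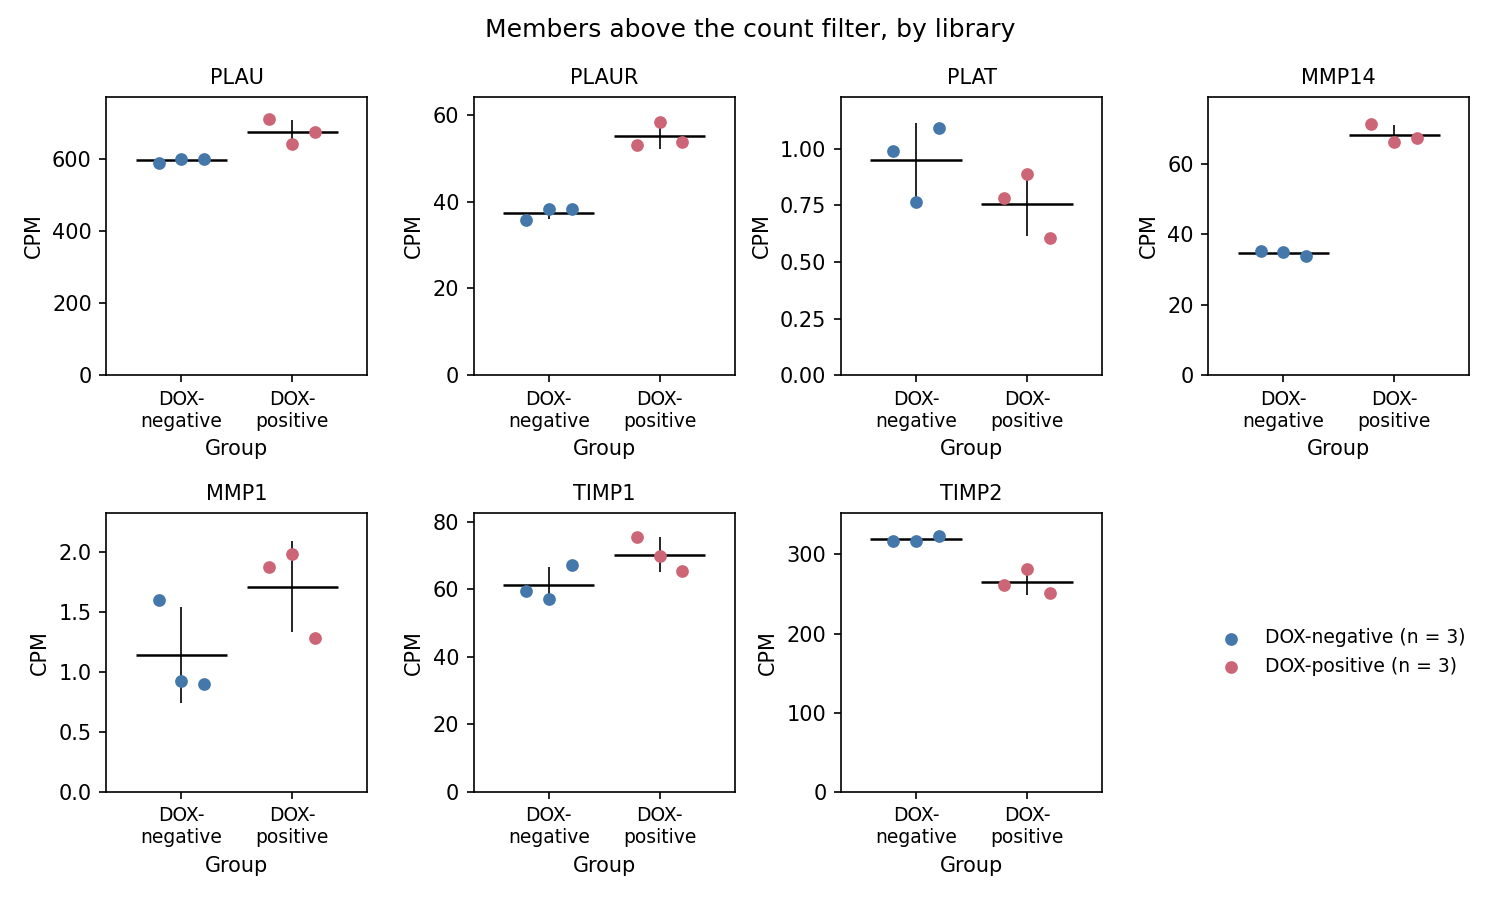
Level in CPM (linear axes from 0) of the 7 members above the count filter, with 1 point per library, the group mean as a horizontal bar and ± 1 SD as a vertical line. The groups are apart in MMP14, PLAUR, PLAU and TIMP2 and overlap in TIMP1, MMP1 and PLAT.

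A ratio of counts within a library does not depend on how libraries are scaled to each other. For each 100 counts of TIMP2 there were 11.2, 11 and 10.4 counts of MMP14 without DOX and 27.3, 23.4 and 26.8 with DOX. The mean ratio went from 10.8 ± 0.389 to 25.8 ± 2.14 (SD, n = 3), 2.38 times as high. This was the largest shift of the 4 ratios computed, and it puts together the member that rose most and the member that fell. Against 100 counts of TIMP1, MMP14 went from 59.3, 61.1 and 50.1 to 94.3, 94.5 and 103 counts, 1.71 times as high on the means. TIMP1 itself went from 18.8, 18 and 20.8 to 28.9, 24.7 and 26 counts for each 100 of TIMP2, 1.38 times as high. The receptor gained on its ligand: PLAUR went from 6.05, 6.37 and 6.38 to 7.46, 9.07 and 7.96 counts for each 100 of PLAU, 1.3 times as high. None of the 4 ratios overlapped between groups. Each holds a member that passed the test, and the share of other gene pairs without overlap was not computed. The 4 ratios are descriptions of counts with no test, and since transcript lengths differ they are not ratios of molecules.

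**Figure D2:**
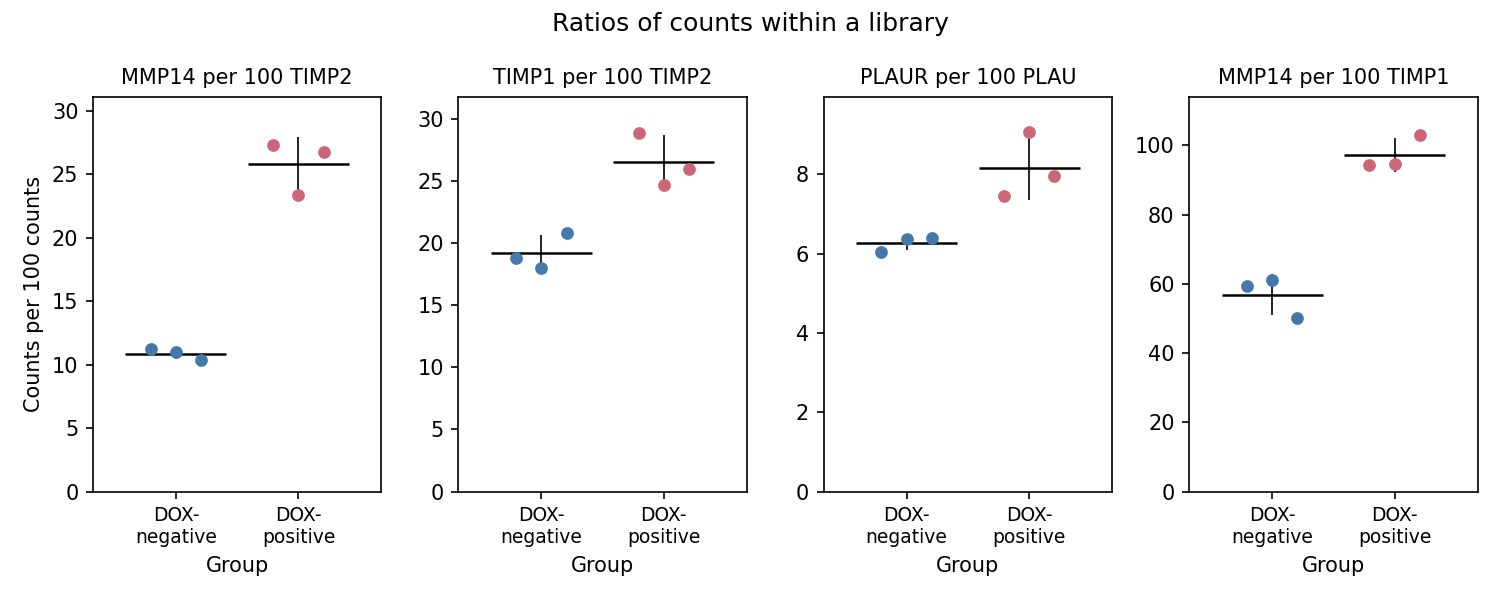
Counts of the first gene for each 100 counts of the second gene in the same library (linear axes from 0), with 1 point per library (blue without DOX, red with DOX), the group mean as a horizontal bar and ± 1 SD as a vertical line. In each panel the 3 DOX-positive libraries lie above the 3 DOX-negative libraries.

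Set against all genes, the members' share of calls has to be read with a high background. Of the 7 members tested, 4 passed an edgeR adjusted p of 0.05, where 26.7% of the 14292 genes tested did. The 3 members that rose compare with 13.0% of all genes called higher, and the 1 that fell with 13.7% called lower. The CPM of the groups did not overlap in 4 of the 7, against 39.8% of all genes tested. The median log2 fold change of the 7 was 0.20, beside -0.003 over all genes. With so few members these counts single out nothing about the family. The calls of MMP14, PLAUR and TIMP2 held in every fit on counts, including those without any 1 library, and on rescaled TPM. On the deposited TPM, in which those short RNAs take a variable share and the median of all genes moved by -0.32 on the log2(TPM + 1) scale, 0 members passed by limma. There MMP14, PLAUR and TIMP2 kept their signs (0.55, 0.15 and -0.66), and PLAU and TIMP1 changed theirs (-0.22 and -0.19).

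Wider lists of the same system held 70 genes, of which 43 were tested, and 18 rose and 4 fell, beside 13.0% and 13.7% of all genes. The lists were chosen with earlier results of these data known, so these shares are descriptions and not tests. On the deposited TPM, MMP15, MMP24, SPINT2, ANXA2, CTSB and CTSL, all described next as higher, changed sign. Among 18 other metalloproteinases, 5 were tested and 6 had no count in any library. MMP15 and MMP24 rose, and the other 3 tested did not pass. MMP15 went from 11 ± 0.478 to 14.2 ± 1.34 CPM (SD, n = 3, log2 fold change 0.37, edgeR adjusted p = 0.0285). That call was lost with replicate 1 or 2 of the DOX-negative group left out (adjusted p = 0.0983 and 0.0668), with replicate 1 or 2 of the DOX-positive group left out (0.0921 and 0.0737) and on rescaled TPM (limma adjusted p = 0.0824). MMP24 went from 27 ± 0.341 to 34.4 ± 1.49 CPM (log2 fold change 0.35, edgeR adjusted p = 0.00431). MMP24 and, in what follows, SPINT2, ANXA2, CTSB, CTSL, FOSL1, FOSL2, JUND, ETS1, ETS2 and ETV4 were named to complete the counts after their values were seen. S100A10 was also named after its value was seen.

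Of 12 other inhibitors, 6 were tested, and 2 rose and 1 fell. SPINT1, which blocks the surface protease matriptase, had 18.6, 21.8 and 18.6 CPM without DOX and 39.1, 36.9 and 35.5 CPM with DOX (log2 fold change 0.92, SE 0.0959, edgeR adjusted p = 2.58e-07). Its relative SPINT2 rose from 112 ± 0.862 to 138 ± 4.48 CPM (edgeR adjusted p = 0.00118). SERPINE2 (protease nexin-1), an inhibitor of thrombin and urokinase, fell from 17.4, 15.8 and 17.6 CPM to 10.4, 12.9 and 11.3 CPM (log2 fold change -0.56, SE 0.121, edgeR adjusted p = 0.00141). TIMP3 and SERPINB2, an inhibitor of urokinase, had no count in any library.

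Among 7 genes for plasminogen and its partners at the surface, 6 were tested, and 2 rose and 2 fell. Plasminogen itself (PLG) was below the filter, at no more than 3 counts in a library. The plasminogen receptors PLGRKT and ANXA2 rose. S100A10, of the same list, did not pass the test (log2 fold change -0.11, edgeR adjusted p = 0.281) and its groups overlapped. PLGRKT went from 6.02 ± 0.296 to 8.47 ± 0.88 CPM (SD, n = 3, log2 fold change 0.50, edgeR adjusted p = 0.0176), a call lost with replicate 1 of the DOX-negative group left out (adjusted p = 0.0624), with replicate 1 of the DOX-positive group left out (0.0998) and with thinned counts (0.0696). ANXA2 went from 1711 ± 88.7 to 2244 ± 26.7 CPM (log2 fold change 0.39, edgeR adjusted p = 8.84e-05). The endocytic receptors MRC2 and LRP1 fell. MRC2, which takes up collagen and associates with urokinase on its receptor, had 17.3, 22.7 and 19.4 CPM without DOX and 8.75, 12.8 and 8.8 CPM with DOX (log2 fold change -0.97, SE 0.144, edgeR adjusted p = 3.22e-05). LRP1, which clears protease-inhibitor complexes, went from 130, 139 and 110 CPM to 91.5, 101 and 95.3 CPM (log2 fold change -0.40, SE 0.0789, edgeR adjusted p = 0.000645).

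Of 10 activating and surface proteases, 7 were tested, and 3 rose and 0 fell. ST14 (matriptase), an activator of prourokinase and the target of SPINT1, had 3.3, 4.09 and 3.43 CPM without DOX and 5.31, 5.9 and 6.32 CPM with DOX (log2 fold change 0.69, SE 0.185, edgeR adjusted p = 0.00815). The lysosomal cathepsins CTSB and CTSL both had a log2 fold change of 0.19 (edgeR adjusted p = 0.028 and 0.0365). Both calls were lost with totals in place of TMM factors (0.0672 and 0.0822) and on rescaled TPM (limma adjusted p = 0.0728 and 0.0742). The CTSB call was also lost when replicate 2 or 3 of the DOX-negative group (0.0721 and 0.0807) or replicate 1 or 3 of the DOX-positive group (0.0696 and 0.0695) was left out. The CTSL call was lost when replicate 1 of the DOX-negative group (0.21) or any of the DOX-positive group (0.0561, 0.0829 and 0.0916) was left out. Of 12 ADAM and ADAMTS proteases, 8 were tested, and 1 rose and 1 fell. ADAM12, a surface protease that sheds growth factors, had 10.2, 10.1 and 13.4 CPM without DOX and 22.6, 25.7 and 24.1 CPM with DOX (log2 fold change 1.10, SE 0.121, edgeR adjusted p = 5.68e-07). ADAM10, a broadly used sheddase, went from 537 ± 11.1 to 471 ± 37.6 CPM (log2 fold change -0.19, edgeR adjusted p = 0.0333). It did not hold when replicate 1 or 3 of the DOX-negative group (0.101 and 0.0798) or of the DOX-positive group (0.168 and 0.144) was left out.

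The AP-1 and ETS transcription factors, known regulators of MMP and urokinase genes, were all measurable: 8 of 11 rose and 0 fell, beside 13.0% and 13.7% of all genes tested. The median log2 fold change of the 11 was 0.36, beside -0.003 over all genes. This list was chosen with earlier results of these data known, so its share of calls is a description and not a test. JUNB went from 27.9 ± 1.62 to 44.2 ± 3.19 CPM (SD, n = 3, log2 fold change 0.66, edgeR adjusted p = 7.41e-06), and JUN from 27.8 ± 2.77 to 43.8 ± 3.93 CPM (log2 fold change 0.65, edgeR adjusted p = 2.33e-05). FOSL1 rose from 192 ± 15.5 to 291 ± 19.8 CPM (log2 fold change 0.60, edgeR adjusted p = 1.3e-06). ETS1, ETV4, FOSL2, JUND and ETS2 rose by 0.45, 0.44, 0.36, 0.36 and 0.25 on the log2 scale. The other 3 did not pass the test, at log2 fold changes between -0.04 and 0.23. The list kept 8 calls higher and 0 lower in every fit on counts and on rescaled TPM. On the deposited TPM, where the median of all genes moved by -0.32, its median was -0.03 and it had 0 calls by limma, a scale on which FOSL2, JUND and ETS2 changed sign.

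**Figure D3:**
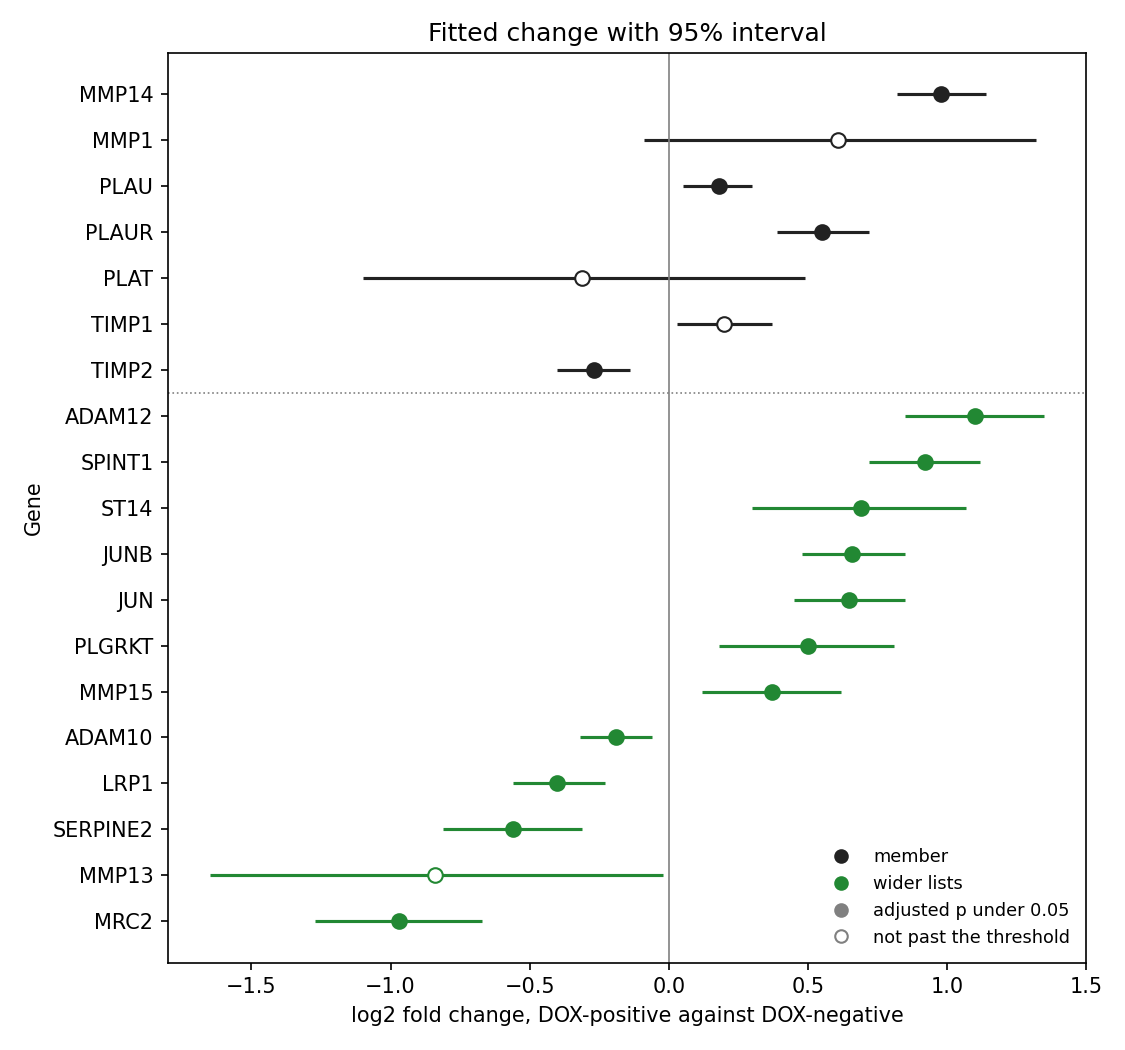
Fitted log2 fold change (x axis, DOX-positive against DOX-negative, 3 libraries each) with its 95% interval for the 7 members tested (black) and for genes named by rule from the wider lists (green). Filled points passed an edgeR adjusted p of 0.05: MMP14, PLAUR, PLAU and TIMP2 among the members. The widest intervals belong to genes of few counts such as MMP13, PLAT and MMP1.

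**Figure D4:**
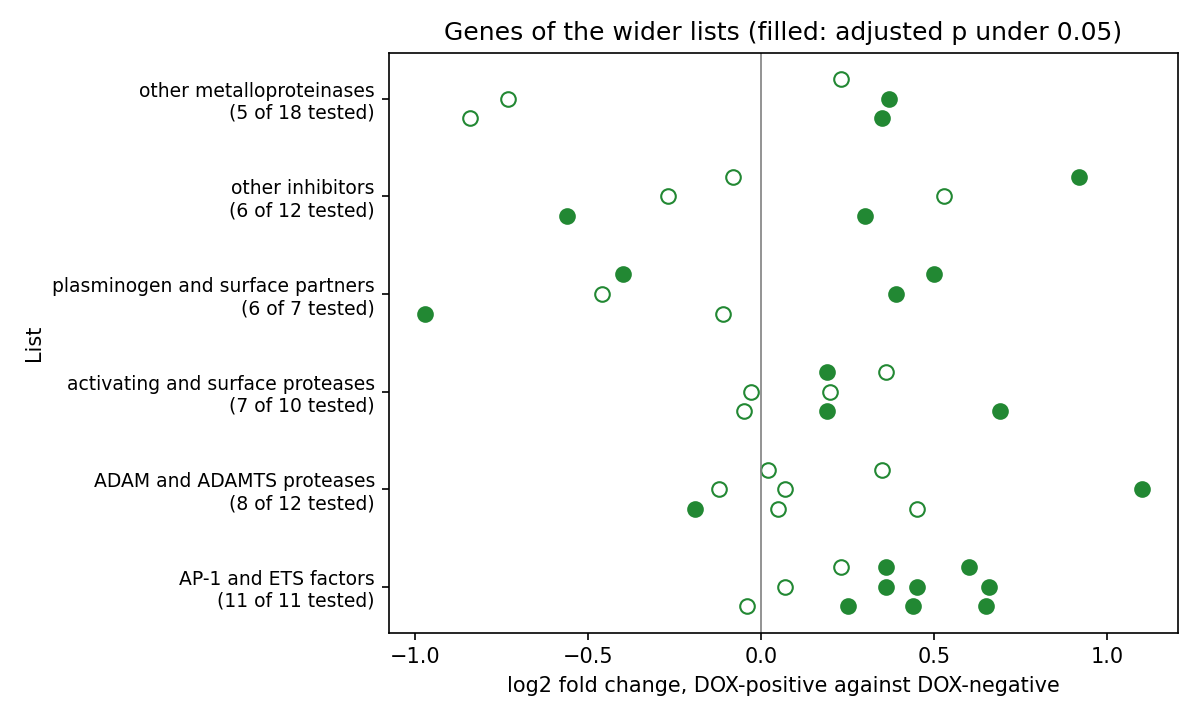
Fitted log2 fold change (x axis) of each tested gene of the 6 wider lists (1 row a list, points shifted up and down for legibility). Filled points passed an edgeR adjusted p of 0.05: 18 genes lie to the right of 0 and 4 to the left, and 8 of the 18 are AP-1 and ETS factors.

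Some exons of members are shared with other genes, and whether the counting used strand is not given in the sources used here. PLAU shares 916 bases with C10orf55 and TIMP2 shares 367 bases with AC022966.1, both on the opposite strand and neither a row of the count table. On the same strand TIMP2 shares 198 bases with CEP295NL, which had between 4 and 12 counts in a library. SLC12A5-AS1, which shares 430 bases with MMP9 on the opposite strand, had between 1 and 12 counts. Reads in the bases shared with the opposite strand cannot be told apart without strand. Those shared with CEP295NL cannot be told apart by strand at all.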

How the data were processed

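Total RNA of triplicate cultures was made into stranded mRNA libraries, per the labels (3 DOX-negative, 3 DOX-positive, grouped by title). The authors deposited whole-number read counts for 28008 genes, and TPM values per library. Their processing notes name STAR, DESeq2, GRCh38 and hg38, and the counting step is not given in the sources used here. In the deposited TPM, RN7SL1, RN7SL2, RN7SL3, RN7SK and RPPH1 held 34.4% to 64.4% of a library, lowest in DOX-negative replicate 2, so TPM was rescaled without these 5 to compare levels between genes.

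The counts were fitted with edgeR 4.0.16 (R 4.3.3): filterByExpr (14292 genes), TMM factors (0.986 to 1.028), glmQLFit and glmQLFTest, two-sided, with no term beside the group. The threshold was a Benjamini-Hochberg adjusted p of 0.05 over all genes tested. CPM used the TMM-scaled library totals. SE was taken as the size of the log2 fold change over the square root of F. The fits were tested on simulated data. Only counting error enters the floor of 3 counts, while the 95% intervals of fold changes come from the edgeR fit and include the spread between replicates. Replicates differed by more than sampling noise (chi-square per degree of freedom 3.65 to 19), so each library was 1 replicate.

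The members and the wider lists were chosen with earlier results of these data known. Named genes were all members, MUC1, 5 further genes of the chromosome 11 run, and, among wider-list genes past the threshold with an average logCPM of at least 1, the 5 largest rises and falls overall and the largest of each list. Some genes are not reported here. Alternatives were a replicate block, thinned counts, a minimum of 10 counts per library, no filter, total counts, RLE factors, DESeq2 1.42.0, limma 3.58.1 on log2(TPM + 1), on log2(TPM + 0.1), on log2(TPM + 1) without a filter and on rescaled TPM, and each library left out in turn. Fold changes on log2(TPM + pseudocount) understate the change of low genes. Promoters and motifs were read with Python 3.11.15. Promoter sequences are RefSeq (GRCh38.p14), and positions GENCODE 29. No RefSeq promoter was given for MMP1, MMP2, MMP9, PLAT and TIMP2.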

Additional observations from a re-analysis of the deposited data

How the results depend on the processing

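On counts, between 2784 (without DOX-negative replicate 1) and 4004 genes (no filter) passed, beside 3816. Of the members 3 or 4 passed in these fits, the difference being PLAU or TIMP1, and of the wider lists 17 to 23 genes. With each library left out in turn, 2784 to 3645 genes and 3 to 4 members passed. Rescaled TPM gave 3097 genes and 3 members. With total counts, 39.3% of the calls were higher, beside 48.8%.

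The deposited TPM gave 443 genes, 0 members and 1 wider gene at log2(TPM + 1), and 408 genes, 0 members and 1 wider gene at log2(TPM + 0.1), MRC2 being that gene in both. Without a filter it gave 0 genes, 0 members and 0 wider genes by limma (2888 genes at an unadjusted p under 0.05). The median of all genes moved by -0.32, -0.38 and -0.32 on these scales. MMP14 was at 0.55, 0.58 and 0.55, which is 0.87, 0.96 and 0.87 relative to that shift, with adjusted p between 0.275 and 0.351.

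Reversed signs in the deposited TPM were PLAU (-0.22 in all of these fits), TIMP1 (-0.19), MMP15 (-0.03, -0.032 and -0.03), MMP24 (-0.043, -0.044 and -0.043), SPINT2 (-0.093, -0.094 and -0.093), ANXA2 (-0.001), CTSB (-0.2), CTSL (-0.21), FOSL2 (-0.033, -0.032 and -0.033), JUND (-0.037, -0.036 and -0.037) and ETS2 (-0.15). All of these were above 0 relative to the shift. Over the tested members, MUC1 and the tested genes named from the wider lists, except S100A10, 409 refits kept direction and side of the threshold. Of the other refits, 82 lost the call, 2 gained it and 33 changed sign.

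The replicate block gave 3158 genes (3136 of them called without it), 3 members and 18 wider genes. PLAU (adjusted p = 0.0922), ADAM10 (0.0751), MMP15 (0.0546), CTSB (0.0748) and CTSL (0.0788) lost their calls. Libraries of the same number did not deviate together (correlations -0.0189, -0.095 and -0.0273), so the samples share only a number. Depth limits what can be said of MMP1, PLAT and MMP13, and of members at 0 to 3 counts.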
